A study of Homo sapiens with 6 samples.

Results

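The genes of cholesterol and fatty acid synthesis, with their regulators, were followed in 6 human prostate cancer cell lines. The set was a list of 32 gene symbols: 17 genes of the sterol arm, 10 of the fatty acid arm and 5 regulators. They were chosen by symbol from the 42887 symbols of the deposited expression tables. The rule itself uses no measured value, but the members were listed with earlier results of these data known. All 32 were found, each as a single entry, and all 32 passed the filter on low values, a mean of at least 1 FPKM over the 6 libraries. The lines formed 3 pairs, in which a castration-sensitive line was set beside a castration-resistant line of the same parental name. LNCaP was paired with LNCaP-abl, VCaP with VCaP-CR and LAPC4 with LAPC4-CR. Castration-resistant cells are those that go on growing when androgen is withdrawn. Total RNA was sequenced from 1 library per line. LNCaP and LAPC4 were grown in RPMI medium with 10% fetal bovine serum, and VCaP was grown in DMEM with 10% fetal bovine serum. The 3 resistant lines were all grown in RPMI with 10% charcoal-stripped serum and B27, a supplement for serum-poor culture. Charcoal stripping takes out steroids along with other lipids, so that state and lipid supply differed together in every pair and cannot be told apart. In the VCaP pair the basal medium differed as well. No further treatment was given, and each line is a single established line.

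Cells take cholesterol and fatty acids from serum or make them from acetyl-CoA. Sterol regulatory element-binding proteins, or SREBPs, are membrane-bound factors that switch on both arms. When sterol in the endoplasmic reticulum is low, the escort protein SCAP carries the SREBP precursor to the Golgi for cleavage, and when sterol is plentiful the INSIG proteins hold SCAP back. Androgen is known to raise lipid synthesis in prostate cancer cells, and FASN, the fatty acid synthase, is known for its high level in prostate tumours.

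Levels are given as scaled FPKM, counts scaled by gene length and by the library's total count, then divided by a factor for each library, so that levels can be compared between genes. A change within a pair is the resistant minus the sensitive library in log2(scaled FPKM + 1), a scale on which low genes appear to differ by less than they do. Folds within a pair are ratios of scaled FPKM, and their 95% intervals cover counting error only. With 1 library per state in a line there is no test within a pair. The test across the pairs was edgeR's quasi-likelihood test with the parental line as a block. Its p-values rest on the spread between these 3 pairs, with each gene's spread moderated by that of the other tested genes. The SE of a fitted log2 fold change was derived from that test, so it does not follow from the SD of the gene's 3 changes. As in any bulk sample, fewer cells expressing a gene and less RNA per cell cannot be told apart.

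Total counts ran from 8661337 to 22433655, and within each pair the resistant library had the larger total. Short RNAs took 13.0% to 27.0% of the counts, less in the resistant library of each pair, and protein-coding genes took 62.8% to 79.5%. Of 13 cell type markers, 12 were in the tables. The 7 prostate epithelial markers summed to 410 to 976 scaled FPKM in the sensitive libraries and 251 to 850 in the resistant ones. The white blood cell marker PTPRC and the endothelial marker CDH5 were below 0.4 scaled FPKM in every library. The 3 fibroblast genes summed to 1.00 to 4.56 in the sensitive and 0.854 to 50.7 in the resistant libraries, through LUM, a matrix proteoglycan, which was at 3.94 in VCaP against 50.2 in VCaP-CR. COL1A1 and COL1A2, the collagen genes among these fibroblast markers, stayed below 0.72 in all 6. KLK3, the androgen-driven gene of prostate-specific antigen, was at 108 to 610 in the sensitive libraries and at 0.649 to 19.2 in the resistant ones. The part of these differences in the results on lipid genes was not tested.

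More of the lipid genes were higher than lower in the resistant library of the LNCaP and VCaP pairs. In the LNCaP pair 22 of 32 (68.8%) were higher in the resistant library, against 49.1% of all 16231 tested genes. The VCaP pair had 21 of 32 (65.6%), against 48.5% of all tested genes. The LAPC4 pair had 17 of 32 (53.1%), against 48.3%. Among protein-coding genes alone the shares were 55.6%, 48.6% and 51.7%, and the members' share in the LAPC4 pair was near that background. Most differences were small. At least 2-fold on the log2(scaled FPKM + 1) scale, 3 members were higher and 1 was lower in LNCaP-abl, 0 and 0 in VCaP-CR, and 4 and 2 in LAPC4-CR. The same threshold was passed upward by 6.23% (LNCaP pair), 2.37% (VCaP pair) and 5.22% (LAPC4 pair) of all tested genes, and downward by 6.19%, 2.03% and 5.28%. Protein-coding genes passed it upward in 7.27%, 2.12% and 6.15% and downward in 4.04%, 1.95% and 4.72%. The members' shares were 9.38% upward and 3.12% downward in the LNCaP pair, 0.0% each way in the VCaP pair, and 12.5% and 6.25% in the LAPC4 pair. The upward shares in the LNCaP and LAPC4 pairs were above the background, though they rested on only 3 and 4 members. The difference from the background was not tested, here or below, since the members were listed with earlier results of these data known.

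Across the 3 pairs, 0 of 32 members passed an adjusted p of 5% in either direction, against 0.0% of all tested genes (edgeR, Benjamini-Hochberg over 16231 genes, smallest adjusted p 0.593 among the members and 0.314 among all genes). At an unadjusted p under 5%, 4 members were higher, which is 12.5% against 4.49% of all tested genes. They were INSIG1, HMGCS1, CYP51A1 and ELOVL6. No member was lower at that threshold, against 3.38% of all tested genes. DESeq2 also gave 0 members at an adjusted p of 5%, against 0.505% of genes higher and 0.339% lower, and the same 4 genes at an unadjusted p under 5%. limma likewise gave 0 and 4. The count of 4 rested on the LAPC4 pair, without which 1 member, SCD, was higher at that threshold, while it was 3 without the LNCaP pair and 3 without the VCaP pair. Without the block it was 1, ELOVL6. For none of the 32 did the 3 resistant libraries all lie above or all lie below the 3 sensitive ones, which held for 3.44% and 3.22% of tested genes.

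**Figure D1:**
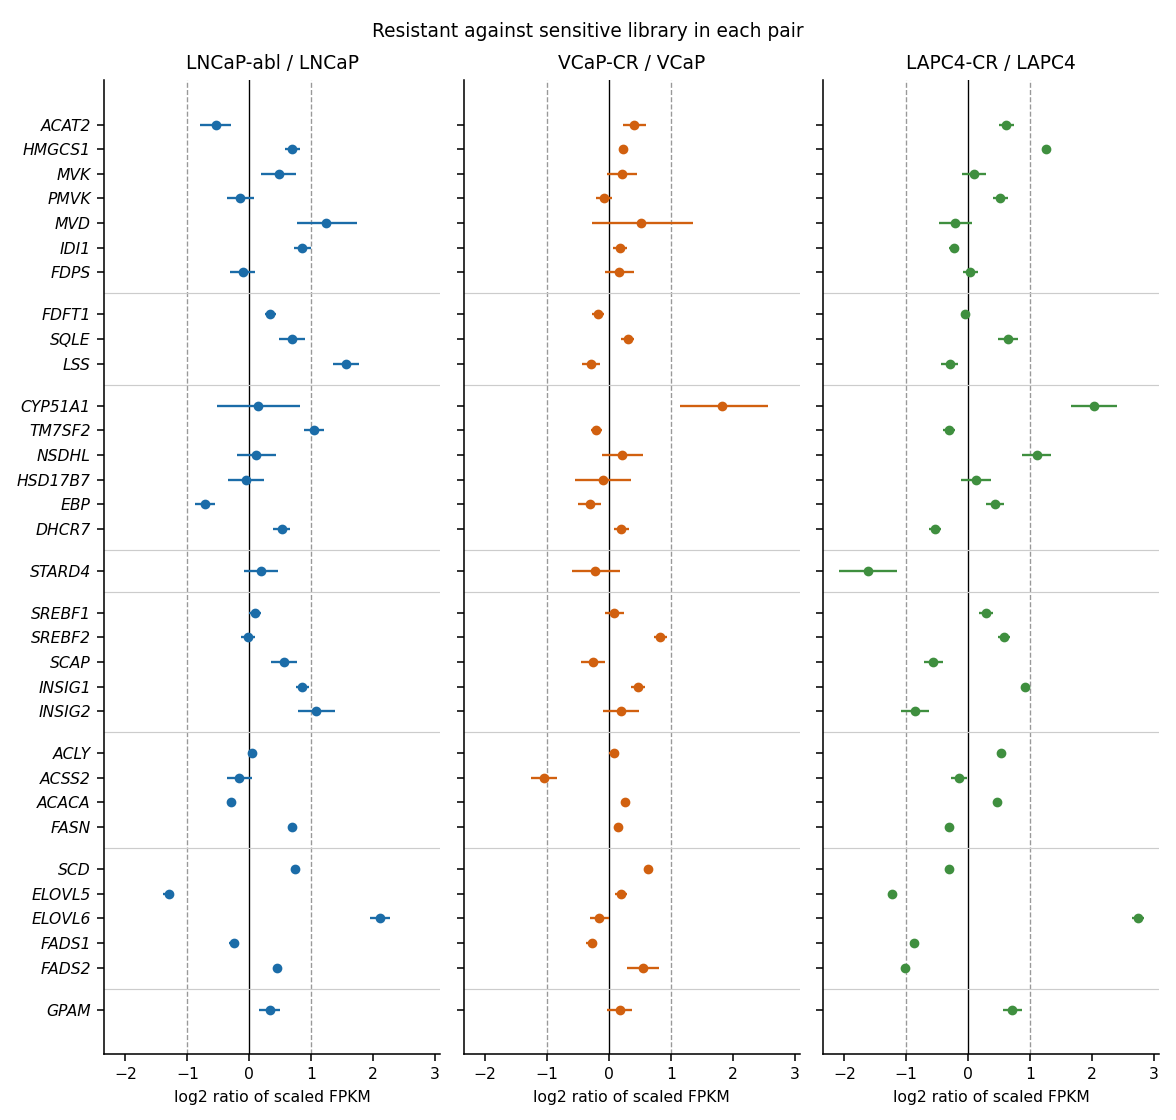
Each point is 1 gene's log2 ratio of scaled FPKM, resistant over sensitive library, in the LNCaP, VCaP and LAPC4 pairs, and each bar is its 95% counting interval. Genes are grouped by their place in the pathway, and dashed lines mark 2-fold. ELOVL6 stands farthest to the right in the LNCaP and LAPC4 pairs and ELOVL5 lies left of the 2-fold line in both, while in the VCaP pair CYP51A1 is farthest right and ACSS2 farthest left.

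The same direction in all 3 pairs was seen for 11 members. The 9 that were higher in each resistant library (28.1%, against 15.1% of all tested genes and 18.1% of protein-coding ones) were HMGCS1, MVK, SQLE, CYP51A1 and NSDHL of the sterol arm, ACLY and GPAM of the fatty acid arm, and the regulators SREBF1 and INSIG1. The 2 that were lower in each (6.25%, against 16.7% of all tested genes and 13.9% of protein-coding ones) were ACSS2 and FADS1, both of the fatty acid arm. Of the 9, only INSIG1, HMGCS1 and SQLE had counting intervals that excluded 1 in all 3 pairs, and of the 2, only FADS1 did. With factors from protein-coding genes 7 were higher in each, since ACLY turned to -0.06 and SREBF1 to -0.01 in the LNCaP pair. The remaining 21 had mixed directions.

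Promoters are shown for the members with the same direction in every pair, to set the letters of their start regions side by side. They were ranked by the smallest of their 3 changes, and the first 6 with an entry in the promoter table are printed. SQLE ranked second but had no entry, and SREBF2 was added after the search because it was the 1 member with a sterol regulatory element match. The sequences are RefSeq's on GRCh38.p14, 300 bases from 250 before the gene's first listed start, 5′ to 3′ on the gene's strand. Such a window was found for 28 of the 32 members. The letters searched on both strands were TCACNCCAC, a sterol regulatory element to which SREBPs bind, CACGTG, an E-box, CCAAT, bound by NF-Y, and GGGCGG, a GC box bound by Sp1. Capitals mark the first 3 of these, with ATTGG as CCAAT on the other strand. Of the genes higher in each resistant library, INSIG1 lies at chr7:155297628-155297927 on the plus strand, HMGCS1 at chr5:43313363-43313662 on the minus strand, GPAM at chr10:112183716-112184015 on the minus strand and NSDHL at chrX:152830813-152831112 on the plus strand. Of the lower genes, ACSS2 lies at chr20:34874739-34875038 on the plus strand and FADS1 at chr11:61816954-61817253 on the minus strand. SREBF2 lies at chr22:41832855-41833154 on the plus strand.
INSIG1: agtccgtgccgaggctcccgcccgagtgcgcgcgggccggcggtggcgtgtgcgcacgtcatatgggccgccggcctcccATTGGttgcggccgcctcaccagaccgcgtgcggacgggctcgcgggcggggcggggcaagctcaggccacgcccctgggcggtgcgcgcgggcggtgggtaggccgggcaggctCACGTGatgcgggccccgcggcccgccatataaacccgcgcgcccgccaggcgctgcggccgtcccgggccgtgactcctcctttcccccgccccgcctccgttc
HMGCS1: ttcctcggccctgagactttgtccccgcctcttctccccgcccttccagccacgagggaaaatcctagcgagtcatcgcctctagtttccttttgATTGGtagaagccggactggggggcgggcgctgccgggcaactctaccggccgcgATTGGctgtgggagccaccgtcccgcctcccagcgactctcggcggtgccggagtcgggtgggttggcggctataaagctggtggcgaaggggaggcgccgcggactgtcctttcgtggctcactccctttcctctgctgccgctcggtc
NSDHL: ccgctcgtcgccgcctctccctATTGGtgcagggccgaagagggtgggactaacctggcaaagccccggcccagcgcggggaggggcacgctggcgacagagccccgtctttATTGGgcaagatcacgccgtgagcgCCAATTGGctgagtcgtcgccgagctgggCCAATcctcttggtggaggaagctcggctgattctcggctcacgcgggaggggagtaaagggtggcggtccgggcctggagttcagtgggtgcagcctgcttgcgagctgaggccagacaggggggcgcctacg
GPAM: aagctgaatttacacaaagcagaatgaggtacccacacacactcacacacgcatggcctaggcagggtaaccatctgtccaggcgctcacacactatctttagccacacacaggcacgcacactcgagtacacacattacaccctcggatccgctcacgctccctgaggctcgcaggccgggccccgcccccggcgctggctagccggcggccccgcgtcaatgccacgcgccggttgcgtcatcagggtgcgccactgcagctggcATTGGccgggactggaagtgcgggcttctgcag
ACSS2: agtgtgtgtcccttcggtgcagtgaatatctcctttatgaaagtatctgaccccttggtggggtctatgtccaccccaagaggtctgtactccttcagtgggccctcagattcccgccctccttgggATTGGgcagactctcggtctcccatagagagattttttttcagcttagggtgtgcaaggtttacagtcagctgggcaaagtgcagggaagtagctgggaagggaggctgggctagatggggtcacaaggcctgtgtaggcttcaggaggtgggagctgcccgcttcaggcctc
FADS1: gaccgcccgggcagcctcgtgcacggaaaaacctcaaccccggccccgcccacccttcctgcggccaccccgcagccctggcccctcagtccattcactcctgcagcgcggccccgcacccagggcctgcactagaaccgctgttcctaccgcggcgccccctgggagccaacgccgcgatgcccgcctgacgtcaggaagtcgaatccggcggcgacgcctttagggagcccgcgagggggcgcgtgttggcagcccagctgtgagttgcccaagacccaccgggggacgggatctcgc
SREBF2: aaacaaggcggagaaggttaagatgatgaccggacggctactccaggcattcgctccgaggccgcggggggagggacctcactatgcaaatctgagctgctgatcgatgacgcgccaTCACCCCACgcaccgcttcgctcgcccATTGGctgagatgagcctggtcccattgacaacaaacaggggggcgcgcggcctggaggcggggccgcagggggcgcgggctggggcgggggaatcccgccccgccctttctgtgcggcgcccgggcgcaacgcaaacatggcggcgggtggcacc

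CCAAT was in 18 of the 28 member promoters (64.3%), against 35.7% of 27305 promoters in the table. The sterol arm had it in 11 of 14 (78.6%), the fatty acid arm in 5 of 9 (55.6%) and the regulators in 2 of 5. NSDHL held 5 matches, a pair of which overlap as a palindrome, HMGCS1 held 2, and FADS1 held none of the 3 capitalised motifs. GGGCGG was in 25 of 28 (89.3%), against 44.6%, and CACGTG in 4 of 28 (14.3%), against 7.43%. TCACNCCAC was in 1 of 28 (3.57%), against 1.15%. The background promoters were not matched to the members by expression or base content, and none of these differences was tested. A match is a description of letters in this window, and its absence says nothing about the factor.

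INSIG1 was the regulator with the largest mean change. INSIG1, which retains SCAP in the endoplasmic reticulum and is itself an SREBP target, lies at chr7:154720419-154732879 in hg18. Its level was 31.6 in LNCaP against 57.1 in LNCaP-abl, 26.9 in VCaP against 37.2 in VCaP-CR, and 64.3 in LAPC4 against 121 in LAPC4-CR. Each resistant library was above its own parent, although VCaP-CR stayed below LAPC4, so that the states overlapped. The fold was 1.81 in the LNCaP pair (95% counting interval 1.68 to 1.94), 1.38 for VCaP-CR over VCaP (1.28 to 1.49) and 1.89 for LAPC4-CR over LAPC4 (1.81 to 1.96). The fitted log2 fold change over the pairs was 0.76 ± 0.24 (SE, n = 3 pairs), with an unadjusted p of 0.0178 and an adjusted p of 0.593 in edgeR.

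INSIG2, the less sterol-responsive relative, did not share that pattern. Its level was 3.69 in LNCaP against 7.82 in LNCaP-abl, 3.99 in VCaP against 4.58 in VCaP-CR, and 6.14 in LAPC4 against 3.39 in LAPC4-CR. The resistant library was thus 2.12-fold higher in the LNCaP pair (1.73 to 2.60) and the sensitive one 1.81-fold higher in the LAPC4 pair. SCAP was likewise higher in LNCaP-abl and lower in LAPC4-CR, and unlike INSIG2 it was lower in VCaP-CR, at 4.88 and 7.22 in the LNCaP pair, 6.12 and 5.12 in the VCaP pair, and 7.70 and 5.20 in the LAPC4 pair, sensitive first. SREBF2, which encodes the SREBP that mainly drives sterol genes, was 16.6 and 16.3 in the LNCaP pair, 14 and 24.8 in the VCaP pair, and 12.0 and 17.9 in the LAPC4 pair. Its fold was 1.78 for VCaP-CR (1.65 to 1.91) and 1.49 for LAPC4-CR (1.39 to 1.59), and in the LNCaP pair the interval of 0.910 to 1.06 included 1. SREBF1, whose products mainly drive fatty acid genes, varied more by line than by state. It was 26.1 in LNCaP against 27.8 in LNCaP-abl, 9.31 in VCaP against 9.91 in VCaP-CR, and 10.7 in LAPC4 against 13.1 in LAPC4-CR, with folds of 1.07, 1.06 and 1.22, the first of which also turned downward with factors from protein-coding genes. The median change of the 5 regulators was 0.48 in the LNCaP, 0.16 in the VCaP and 0.27 in the LAPC4 pair.

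**Figure D2:**
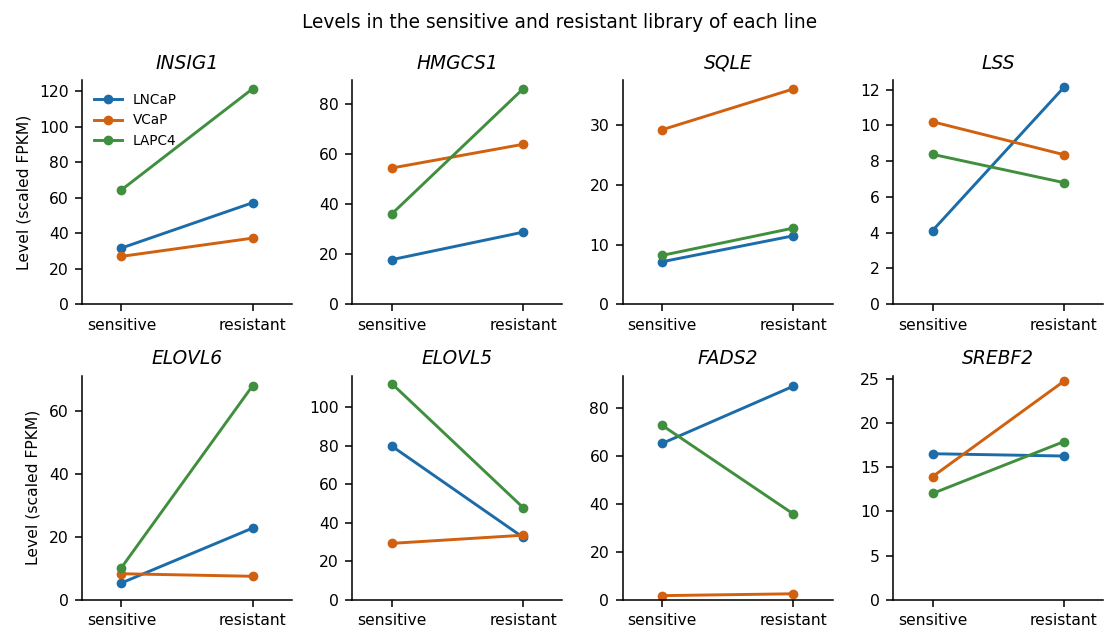
Scaled FPKM of 8 of the genes in the sensitive and the resistant library of each line, with 1 line per parental name and 1 library per point. INSIG1, HMGCS1 and SQLE slope upward in each line, whereas LSS slopes upward in LNCaP only, ELOVL6 is flat in VCaP, and FADS2 is near 0 in both VCaP libraries.

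The mevalonate steps turn acetyl-CoA into the isoprenoid building blocks of sterols. HMGCS1, the cytosolic HMG-CoA synthase, stood out among them, at 17.8 in LNCaP against 28.8 in LNCaP-abl, 54.5 in VCaP against 64.0 in VCaP-CR, and 36.1 in LAPC4 against 86.1 in LAPC4-CR. The highest level was in LAPC4-CR, and both LNCaP libraries lay below the other 4. The folds were 1.62 (1.48 to 1.76), 1.17 (1.12 to 1.23) and 2.38 (2.28 to 2.50), and the fitted log2 fold change was 0.74 ± 0.28 (SE, n = 3 pairs), with an unadjusted p of 0.0371 and an adjusted p of 0.609 in edgeR. Without the LAPC4 pair the HMGCS1 estimate was 0.47. MVK, mevalonate kinase, was higher in each resistant library by little. It was 3.17 and 4.41 in the LNCaP pair, 4.04 and 4.68 in the VCaP pair, and 4.44 and 4.75 in the LAPC4 pair, and the counting intervals of the last 2 folds included 1. MVK also varied least of all 32 members, with a ratio of highest to lowest library of 1.5.

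The other mevalonate genes went different ways in different pairs. ACAT2, the cytosolic thiolase of the first step, was 6.74 and 4.62 in the LNCaP pair, 7.90 and 10.5 in the VCaP pair, and 12.5 and 19.2 in the LAPC4 pair. It was thus lower in LNCaP-abl by 1.46-fold and higher in LAPC4-CR by 1.53-fold (1.41 to 1.67). Its locus overlaps TCP1 and SOD2, and without a stated strand setting reads of overlapping genes cannot be told apart. The same limit holds for MVK, FDFT1, LSS, CYP51A1, TM7SF2, SREBF1, ACSS2 and ACACA, whose loci each overlap another protein-coding gene. PMVK, phosphomevalonate kinase, was 26.9 and 24.4, 61.0 and 57.7, and 47.5 and 67.9 in the same order of pairs, with 1.43-fold in the LAPC4 pair the only fold whose interval excluded 1 (1.32 to 1.55). MVD, mevalonate diphosphate decarboxylase, was 2.90 in LNCaP against 6.86 in LNCaP-abl, 1.12 in VCaP against 1.61 in VCaP-CR, and 8.2 in LAPC4 against 7.10 in LAPC4-CR. The 2.37-fold difference in the LNCaP pair (1.70 to 3.34) rested on 49 and 148 counts, and in the other pairs the interval included 1.

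IDI1, isopentenyl diphosphate isomerase, was 18.5 in LNCaP against 33.5 in LNCaP-abl, 29.5 in VCaP against 33.4 in VCaP-CR, and 45.3 in LAPC4 against 38.7 in LAPC4-CR. It was higher in LNCaP-abl by 1.81-fold (1.64 to 1.99) and lower in LAPC4-CR, at 0.856 of the parent (0.810 to 0.904). FDPS, farnesyl diphosphate synthase, did not differ beyond counting error in any pair, at 11.4 and 10.5, 6.08 and 6.84, and 17.2 and 17.6. The 8 near copies of FDPS held 93 to 518 counts per library beside 221 to 1627 of the gene, and how reads that match several copies were counted is not given in the sources used here. Both VCaP libraries were the lowest and both LAPC4 libraries the highest for FDPS and for MVD.

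Of the 3 squalene steps, SQLE alone was higher in each resistant library. SQLE, squalene epoxidase and a rate-limiting enzyme of the later pathway, was 7.12 in LNCaP against 11.5 in LNCaP-abl, 29.3 in VCaP against 36.1 in VCaP-CR, and 8.18 in LAPC4 against 12.8 in LAPC4-CR. Both VCaP libraries were above the other 4, so the line made a larger difference to its level than the state did. The folds were 1.61 (1.40 to 1.86), 1.23 (1.15 to 1.32) and 1.56 (1.40 to 1.74), and edgeR gave an unadjusted p of 0.0518 and an adjusted p of 0.627. FDFT1, squalene synthase, was 34.4 and 43.6 in the LNCaP pair, 26.8 and 23.8 in the VCaP pair, and 107 and 103 in the LAPC4 pair. Its folds of 1.27, 0.888 and 0.960 all had counting intervals that excluded 1, and the last turned upward in deposited FPKM with no factor. LSS, lanosterol synthase, was 4.12 in LNCaP against 12.1 in LNCaP-abl, 10.2 in VCaP against 8.37 in VCaP-CR, and 8.39 in LAPC4 against 6.80 in LAPC4-CR. LNCaP had the lowest LSS level of the 6 and LNCaP-abl the highest, a 2.94-fold difference (2.56 to 3.40), while the resistant library was at 0.820 and 0.811 of its parent in the VCaP and LAPC4 pairs.

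After lanosterol, CYP51A1 had the largest folds of the sterol arm in the VCaP and LAPC4 pairs, at low levels. CYP51A1, the lanosterol demethylase, lies at chr7:91579401-91610202 in hg18. Its level was 0.899 in LNCaP against 0.993 in LNCaP-abl, 0.525 in VCaP against 1.86 in VCaP-CR, and 1.31 in LAPC4 against 5.32 in LAPC4-CR, from 34 and 48, 21 and 122, and 69 and 541 counts. The fold was 3.54 for VCaP-CR (2.22 to 5.93) and 4.07 for LAPC4-CR (3.16 to 5.31), and in the LNCaP pair the interval of 0.698 to 1.77 included 1. In edgeR the fitted log2 fold change was 1.37 ± 0.47 (SE, n = 3 pairs), with an unadjusted p of 0.0236 and an adjusted p of 0.593. limma, on log2(scaled FPKM + 1), put the CYP51A1 change at 0.81. The 3 near copies of CYP51A1 took 68 and 43, 41 and 128, and 96 and 652 counts in the same libraries, as many as the gene or more in 5 of the 6. Gene and copies added together gave folds of 0.699, 2.46 and 3.75, so that the direction in the LNCaP pair turned.

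NSDHL, a dehydrogenase that takes part in removing methyl groups from the sterol nucleus, was 8.22 and 8.90 in the LNCaP pair, 6.20 and 7.21 in the VCaP pair, and 7.30 and 15.7 in the LAPC4 pair. Of these, the 2.15-fold difference in the LAPC4 pair (1.83 to 2.54) was beyond counting error. TM7SF2, the sterol reductase that acts after the demethylase, showed the reverse order of pairs, with 14 in LNCaP against 28.9 in LNCaP-abl, 56.6 in VCaP against 49.3 in VCaP-CR, and 34.4 in LAPC4 against 27.6 in LAPC4-CR. It was higher in LNCaP-abl by 2.06-fold (1.84 to 2.30) and lower in VCaP-CR and LAPC4-CR, at 0.871 and 0.804 of the parent. HSD17B7, the sterol ketone reductase, did not differ beyond counting error in any pair, at 4.69 and 4.53, 1.71 and 1.6, and 3.81 and 4.15. The 2 near copies of HSD17B7 held 19 to 130 counts per library beside 69 to 426 of the gene. Gene and copies added together gave folds of 0.989, 1.05 and 0.985, so that the direction turned in the VCaP and LAPC4 pairs.

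EBP, the sterol isomerase, and DHCR7, the reductase that yields cholesterol, differed in opposite senses in every pair. EBP was 30.8 in LNCaP against 18.7 in LNCaP-abl, 17.4 in VCaP against 14 in VCaP-CR, and 18.8 in LAPC4 against 25.4 in LAPC4-CR. Its folds were 0.609 (0.543 to 0.683), 0.808 (0.710 to 0.921) and 1.35 (1.23 to 1.49). DHCR7 was 16.8 and 24.2, 21.4 and 24.7, and 29.7 and 20.5, with folds of 1.44 (1.31 to 1.58), 1.15 (1.06 to 1.25) and 0.690 (0.647 to 0.737). STARD4, a carrier that moves sterol between membranes, was the lowest member in LAPC4-CR. Its level was 3.76 in LNCaP against 4.28 in LNCaP-abl, 1.74 in VCaP against 1.5 in VCaP-CR, and 1.39 in LAPC4 against 0.453 in LAPC4-CR, where the counts were 102 and 64. Only the LAPC4 pair differed beyond counting error, with the sensitive library 3.07-fold above the resistant one.

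The fatty acid arm was the more abundant one. In LNCaP its 10 genes had a median level of 43.8, against 8.22 for the 17 genes of the sterol arm, and in LAPC4-CR the medians were 45.8 and 17.6. Either ACLY or SCD had the highest level of all 32 members in each library. The first steps gave small differences. ACLY, which cleaves citrate to cytosolic acetyl-CoA, was 99.2 in LNCaP against 102 in LNCaP-abl, 46.6 in VCaP against 49.6 in VCaP-CR, and 131 in LAPC4 against 190 in LAPC4-CR. It was higher in each resistant library, by 1.03-fold (0.989 to 1.07), 1.06-fold (1.01 to 1.12) and 1.45-fold (1.41 to 1.49), although the LNCaP difference turned downward with factors from protein-coding genes. ACSS2, which makes acetyl-CoA from acetate, was lower in each, at 7.53 and 6.73, 7.88 and 3.83, and 10.7 and 9.64. The VCaP pair had the largest ACSS2 difference, with VCaP-CR at 0.485 of VCaP (0.419 to 0.562).

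ACACA, acetyl-CoA carboxylase, which commits acetyl-CoA to fatty acid synthesis, was 33.6 and 27.5 in the LNCaP pair, 61.4 and 74.0 in the VCaP pair, and 31.9 and 43.9 in the LAPC4 pair. FASN, which builds palmitate, went the other way in 2 of the pairs, with 54.1 in LNCaP against 87.3 in LNCaP-abl, 44.8 in VCaP against 49.9 in VCaP-CR, and 118 in LAPC4 against 94.8 in LAPC4-CR. The ACACA folds were 0.818, 1.21 and 1.38, and the FASN folds were 1.61 (1.55 to 1.67), 1.11 (1.07 to 1.16) and 0.802 (0.784 to 0.820). SCD, the desaturase that makes oleate from stearate, followed FASN, with 82.3 and 137, 67.8 and 105, and 150.7 and 122, and folds of 1.66, 1.55 and 0.810. For each of these genes the 3 resistant libraries overlapped the 3 sensitive ones.

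On the log2(scaled FPKM + 1) scale the largest differences upward and downward were those of 2 elongases. ELOVL6, which lengthens palmitate to stearate, lies at chr4:111186451-111339804 in hg18. Its level was 5.30 in LNCaP against 22.8 in LNCaP-abl, 8.22 in VCaP against 7.41 in VCaP-CR, and 10.2 in LAPC4 against 68.1 in LAPC4-CR. The fold was 4.30 for LNCaP-abl (3.84 to 4.82), 0.901 for VCaP-CR (0.810 to 1.00) and 6.68 for LAPC4-CR (6.25 to 7.14). The log2 change was 1.92, -0.13 and 2.63, a mean of 1.47 ± 1.43 (SD, n = 3 pairs), and edgeR gave an unadjusted p of 0.0281 and an adjusted p of 0.597. The fitted log2 fold change of 1.62 ± 0.58 (SE) became 2.45 without the VCaP pair and 0.98 without the LAPC4 pair.

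ELOVL5, which lengthens polyunsaturated fatty acids, lies at chr6:53240155-53321906 and had the opposite order in the same 2 pairs. It was 79.8 in LNCaP against 32.4 in LNCaP-abl, 29.2 in VCaP against 33.5 in VCaP-CR, and 112 in LAPC4 against 47.8 in LAPC4-CR. The sensitive library was 2.47-fold above the resistant one in the LNCaP pair and 2.35-fold above it in the LAPC4 pair, while VCaP-CR was 1.15-fold above VCaP (1.07 to 1.23). The log2 changes of -1.28, 0.19 and -1.21 had a mean of -0.77 ± 0.83 (SD, n = 3 pairs), and edgeR gave an unadjusted p of 0.0723 and an adjusted p of 0.651. ELOVL5 was above ELOVL6 in 5 of the 6 libraries, and in LAPC4-CR ELOVL6 was the higher one.

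FADS1 and FADS2, the desaturases of polyunsaturated fatty acids, lie beside each other on chromosome 11, at 61323674 to 61404202 and 61340304 to 61391402 in hg18. The deposited locus of FADS1 contains that of FADS2, so the counts of the 2 genes may share reads. FADS2 was 65.3 in LNCaP against 89.2 in LNCaP-abl, 1.66 in VCaP against 2.43 in VCaP-CR, and 72.8 in LAPC4 against 35.8 in LAPC4-CR. Its level depended on the line more than that of any other member, with 53.8-fold between LNCaP-abl and VCaP. Within the pairs the folds were 1.37 (1.33 to 1.41), 1.46 (1.23 to 1.75) and 0.491 (0.478 to 0.505). FADS1 was 20.8 and 17.6, 16.8 and 13.9, and 22.9 and 12.5, lower in each resistant library at 0.842, 0.827 and 0.547 of the parent, and it was not low in VCaP. GPAM, the acyltransferase that starts glycerolipid synthesis, was 5.27 and 6.62, 3.22 and 3.64, and 3.66 and 5.98, with folds of 1.26 (1.12 to 1.41), 1.13 (0.981 to 1.3) and 1.64 (1.47 to 1.82).

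Set beside each other, the sterol arm had the higher median change in each pair, by amounts smaller than the spread within either arm. For the 17 sterol genes the median change was 0.33 in LNCaP-abl, 0.17 in VCaP-CR and 0.08 in LAPC4-CR. That of the 10 fatty acid genes was 0.16, 0.14 and -0.22. All tested genes had medians of -0.01, -0.01 and -0.02, and protein-coding genes 0.08, -0.01 and 0.02. The arms thus differed by 0.17, 0.03 and 0.30. With a pseudocount of 5 in place of 1 the difference in the VCaP pair turned to -0.01. Over the pairs the mean of the medians was 0.19 ± 0.13 for the sterol arm and 0.03 ± 0.22 for the fatty acid arm (SD, n = 3 pairs), and the spreads overlapped. With factors from protein-coding genes alone the fatty acid mean was -0.03. No p is given, since the smallest p that 3 pairs allow in an exact sign-flip test is 0.25.

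**Figure D3:**
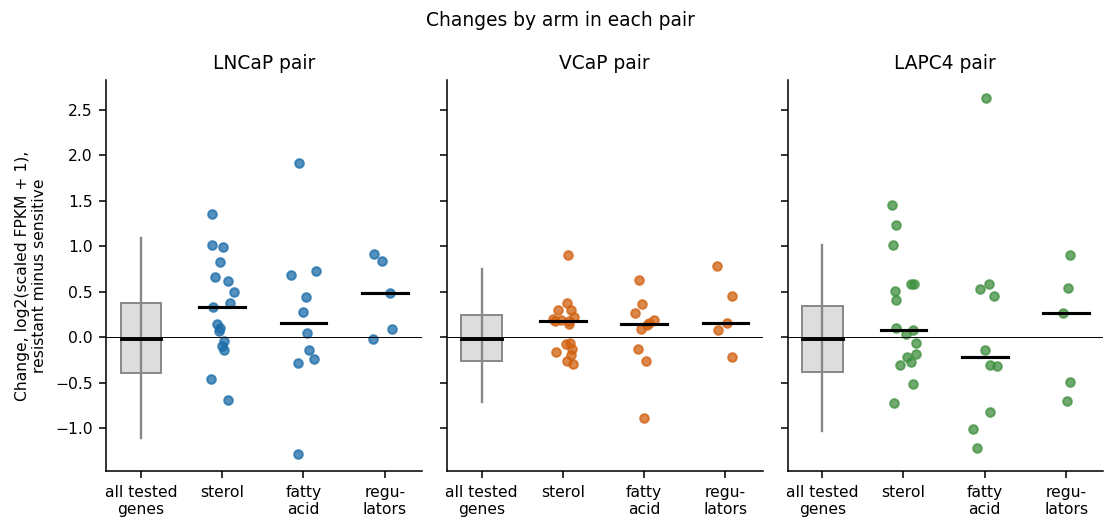
Change of each gene, log2(scaled FPKM + 1) of the resistant minus the sensitive library, by arm and pair, with the median as a black bar. The grey box holds the middle of all 16231 tested genes from quartile to quartile and its whiskers reach from 5% to 95%, and the medians of both arms lie inside the box in all 3 pairs.

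The steps of the sterol arm are given by pair. In the LNCaP pair 12 of 17 sterol genes were higher, with a median change of 0.38 at the mevalonate steps, 0.62 at the squalene steps and 0.09 after lanosterol. In the VCaP pair 10 of 17 were higher, with medians of 0.18, -0.16 and 0.07 at the same steps. In the LAPC4 pair 10 of 17 were higher, with medians of 0.08, -0.06 and 0.26. Of all tested genes, 49.1%, 48.5% and 48.3% were higher in the LNCaP, VCaP and LAPC4 pairs, and of protein-coding genes 55.6%, 48.6% and 51.7%. In the fatty acid arm 6, 7 and 4 of 10 genes were higher in the resistant library, pairs in the same order. Its lower median in the LAPC4 pair came with 4 of the 5 elongation and desaturation genes lower there, all but ELOVL6, at a median of -0.82. These are small groups of genes described in single libraries, and no difference between steps was tested.

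Lines stood apart from each other for most members. For 21 of 32 members (65.6%) both libraries of some line lay above or below the other 4, close to the 63.2% of all tested genes. VCaP was the low line for 11 members (34.4%, against 18.6%): MVD, FDPS, FDFT1, NSDHL, EBP, HSD17B7, SREBF1, FASN, ACLY, FADS2 and GPAM. LAPC4 was the high line for 9 (28.1%, against 13.2%), among them FASN, ACLY, ACSS2, FDFT1 and INSIG1. VCaP was the high line for SQLE, TM7SF2 and ACACA (9.38%, against 18.3%). LNCaP was the high line for SREBF1, HSD17B7 and STARD4 (9.38%, against 11.5%), and the low line for HMGCS1, PMVK and ACAT2 (9.38%, against 9.51%). Both LAPC4 libraries were below the others for STARD4 alone (3.12%, against 12.5%). The ratio of the highest to the lowest library was 12.9 for ELOVL6, 10.1 for CYP51A1 and 9.46 for STARD4, and it was below 2 for MVK, SCAP, DHCR7 and FADS1.

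**Figure D4:**
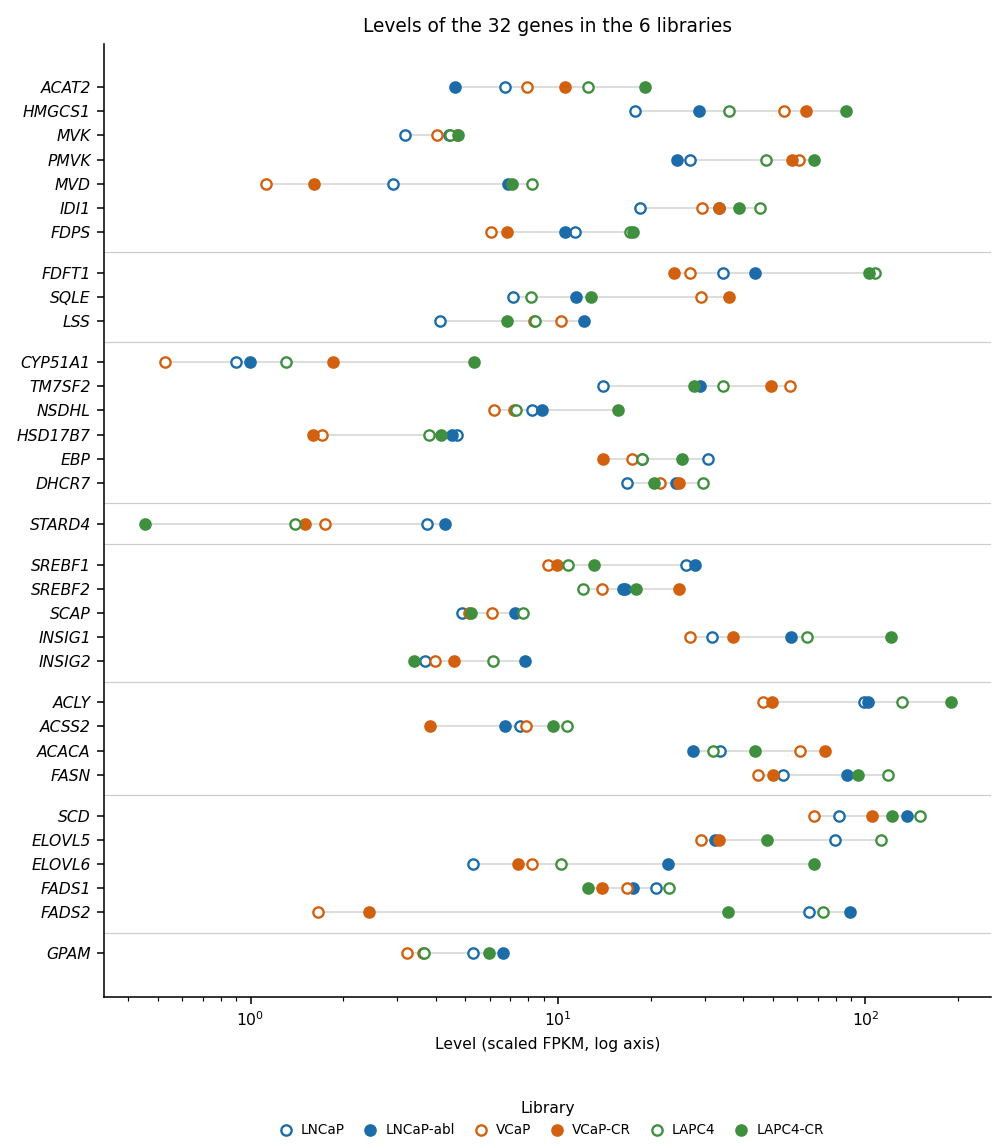
Scaled FPKM of the 32 genes on a log axis, with open circles for the sensitive and filled circles for the resistant libraries, and colour for the line. FADS2 in VCaP and VCaP-CR stands far to the left of the other 4 libraries, and for 21 of the 32 genes both circles of some line lie to one side of the other 4.

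Other genes around these pathways were listed in 8 groups of 69 genes, of which 64 passed the filter on low values. None passed an adjusted p of 5% in edgeR, against 0.0% of all tested genes. At an unadjusted p under 5%, 0 of 64 were higher and 3 lower, against 4.49% and 3.38% of all tested genes. The count of 3 was close to that background. The 3 were ELOVL7, ELOVL2 and SCD5, further elongases and a desaturase, the last 2 named after their values were seen. ELOVL7, an elongase of long saturated fatty acids, was 18.8 in LNCaP against 5.11 in LNCaP-abl, 8.92 in VCaP against 7.46 in VCaP-CR, and 19.7 in LAPC4 against 4.22 in LAPC4-CR. ELOVL7 was thus lower in each resistant library, and edgeR gave it a log2 fold change of -1.46, an unadjusted p of 0.0120 and an adjusted p of 0.593. ELOVL2 had fitted log2 fold changes of -1.16 and SCD5 of -1.06, with unadjusted p of 0.0445 and 0.0406 and adjusted p of 0.627 and 0.618.

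Among the other sterol enzymes, SC4MOL, the sterol methyl oxidase, was 22.3 and 46.4, 45.1 and 49.9, and 40.0 and 64.6, higher in each resistant library. Its fitted log2 fold change was 0.64, with an unadjusted p of 0.0514 and an adjusted p of 0.627 in edgeR. Of 6 SREBP processing genes, MBTPS1, the Golgi protease that makes the first cut in SREBPs, was 9.15 and 21.4 in the LNCaP pair and 20.6 and 16.3 in the LAPC4 pair. ERLIN2, which takes part in sterol-regulated protein breakdown, was 5.59 and 19.7 in the LAPC4 pair. None of the 6 processing genes was lower in all 3 pairs and 2 were higher in all 3, against 16.7% and 15.1% of all tested genes. The same shares of protein-coding genes were 13.9% and 18.1%.

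In sterol uptake and storage, 5 of 8 genes were higher in LNCaP-abl, 5 in VCaP-CR and 2 in LAPC4-CR. All tested genes had 49.1%, 48.5% and 48.3% there, and protein-coding genes 55.6%, 48.6% and 51.7%. SOAT1, which esterifies cholesterol, was 6.57 and 12.0 in the LNCaP pair and 16.8 and 30.9 in the VCaP pair. NCEH1, a cholesteryl ester hydrolase, was 2.40 and 6.88 in the LNCaP pair and 8.76 and 4.01 in the LAPC4 pair, and VLDLR, a lipoprotein receptor, was 5.68 and 2.41 in the LAPC4 pair. Of sterol efflux and its LXR receptors, 6 of 6 genes were higher in LNCaP-abl, beside 49.1% of all tested and 55.6% of protein-coding genes, with a median change of 0.79. One of them, the receptor NR1H3, was nearly level at 3.90 and 4.07, and 2 of 6 were higher in the VCaP pair and 3 of 6 in the LAPC4 pair. ABCA1, the cholesterol exporter, was 0.438 and 5.55 in the LNCaP pair and 3.89 and 0.354 in the LAPC4 pair, opposite directions in the 2. ABCG1, a related exporter, was 1.48 and 6.06 in the LNCaP pair and 2.12 and 1.24 in the VCaP pair.

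In triglyceride synthesis and lipid droplets, PLIN2 and PLIN3 included, 9 of 11 genes were higher in LNCaP-abl, 4 of them at least 2-fold, with a median change of 0.70. All tested genes had 49.1% higher and 6.23% at least 2-fold higher in that pair, and protein-coding genes 55.6% and 7.27%. AGPAT6 and LPIN2 were the lower ones, and the other pairs had 5 and 3 of 11 genes higher. No list was tested as a group. AGPAT9, a glycerol-3-phosphate acyltransferase, was 0.280 in LNCaP against 9.58 in LNCaP-abl, 0.413 in VCaP against 0.342 in VCaP-CR, and 0.871 in LAPC4 against 3.0 in LAPC4-CR. DGAT1, which makes triglyceride, was 5.79 and 12.8 in the LNCaP pair and 9.65 and 5.32 in the VCaP pair. ACSL4, an acyl-CoA synthetase with a preference for arachidonate, was 1.36 and 10.1 in the LNCaP pair, 2.07 and 3.03 in the VCaP pair, and 0.489 and 0.416 in the LAPC4 pair. ACSL3, another synthetase, was 53.6 and 27.0 in the LNCaP pair and 30.3 and 38.0 in the LAPC4 pair.

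ME1, the malic enzyme that supplies NADPH, was 19.6 and 24.7 in the LNCaP pair and below 0.4 in LAPC4 and LAPC4-CR, and it was 0.181 in VCaP against 2.30 in VCaP-CR, from 6 and 125 counts. ELOVL3, an elongase, was 0.315 and 5.30 in the LNCaP pair, from 4 and 86 counts. In fatty acid oxidation 7 of 9 genes were higher in LNCaP-abl, 4 in VCaP-CR and 5 in LAPC4-CR. The same 49.1%, 48.5% and 48.3% of all tested genes were higher, and 55.6%, 48.6% and 51.7% of protein-coding genes. AMACR, a racemase of branched fatty acids known as a prostate cancer marker, was 2.94 and 14.8 in the LNCaP pair, 6.96 and 0.978 in the VCaP pair, and 1.23 and 1.16 in the LAPC4 pair. ACADVL, the very long-chain acyl-CoA dehydrogenase, was 89.1 and 40.0 in the LAPC4 pair. Over all 64 genes, 44, 35 and 28 were higher in the 3 pairs, again beside 49.1%, 48.5% and 48.3% of all tested genes. Protein-coding genes again had 55.6%, 48.6% and 51.7%. The median changes of the 64 were 0.31, 0.06 and -0.06, beside 0.31, 0.16 and 0.06 for the 32 members.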

How the data were processed

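RNA was measured in 6 libraries, 1 per line. The labels' protocols name RNeasy columns for total RNA and a SOLiD kit for the libraries. The submitters' processing notes name HTSeq and hg18. The aligner, annotation release, strand setting and treatment of multiply matching reads were not given in the sources used here. Per the file headers, each deposited table holds a count and an FPKM value for 51698 genes. The deposited FPKM was rebuilt within 1% for 100% of genes from count, gene length and total count. Gene starts have 1 added, since the tables count them from 0.

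Short RNA classes (8763 entries) were left out by their class, and 48 symbols were summed from several entries. FPKM was divided by a factor per library (0.847 to 1.11), the median over 11600 genes of the ratio to their geometric mean. Symbols whose mean scaled FPKM reached 1 were tested, 16231 in all, 11341 of them protein-coding. The deposited counts were tested with edgeR 4.0.16 (quasi-likelihood, TMM, R 4.3.3), with Benjamini-Hochberg adjustment over all tested genes and a threshold of 5%. DESeq2 1.42.0 and limma 3.58.1 on log2(scaled FPKM + 1) were alternatives, beside other pseudocounts, scalings and filters and leaving out each pair. The fit was tested on simulated data. Counting intervals are exact at 95%.

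Pairs come from the line names and served as a block. The 2 libraries of a pair deviated from their group means together, with correlations over genes of 0.464 (LNCaP), 0.734 (VCaP) and 0.593 (LAPC4). The members and lists were chosen with earlier results of these data known. Named genes are all 32 members and, of the other lists, genes changed 2-fold the same way in at least 2 pairs and the gene with the largest absolute change of each list in each pair. One named gene is not reported here.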

Additional observations from a re-analysis of the deposited data

Results flagged for a closer look

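For 3 members the change was at least 2-fold in 1 pair and went the other way, beyond counting error, in another pair. Each value is a difference of 2 changes in log2(scaled FPKM + 1), each from a single pair, and none of these differences was tested. The change of LSS was larger in the LNCaP pair than in the VCaP pair by 1.62 and than in the LAPC4 pair by 1.62. For ELOVL5 the change minus that of the VCaP pair was -1.47 in the LNCaP pair and -1.40 in the LAPC4 pair. For FADS2 the LAPC4 change minus the LNCaP change was -1.45, and minus the VCaP change it was -1.37.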

How the results depend on the processing

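No member passed an adjusted p of 5% under any of the 8 other fits tried, and the smallest adjusted p of a member was 0.0610, for ELOVL6 without the filter on low values, a gene whose adjusted p ran up to 1.0 over those fits. Over all tested genes edgeR called 0 higher and 0 lower, 95 and 58 without the filter, and DESeq2 called 82 and 55. Leaving out a pair gave 0 to 13 higher and 1 to 20 lower. Without the replicate block 1 member, ELOVL6, was higher at an unadjusted p under 5% in place of 4, and FADS2 turned to a log2 fold change of -0.13; the block changed no other direction and no adjusted call. Leaving out a pair gave 1 to 3 members (3.12% to 9.38%) higher and 0 to 1 lower at an unadjusted p under 5%, against 3.68% to 5.69% and 2.85% to 3.68% of all tested genes. It left 10 to 16 members (31.2% to 50%) higher and 3 to 7 (9.38% to 21.9%) lower in both remaining pairs, against 24.9% to 27.0% and 27.6% to 30.1% of all tested genes.

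Counts of 2-fold members depended on the scale. With a pseudocount of 0.25 the LNCaP pair had 5 higher and the VCaP pair 1, and with TMM-scaled counts likewise 5 and 1. With a pseudocount of 5 the LNCaP pair had 1 higher, the LAPC4 pair 2 higher and 1 lower, and the sterol median in the LNCaP pair was 0.20. Deposited FPKM with no factor left 1 lower in the LAPC4 pair. At 1.5-fold the LNCaP pair had 11 higher and 2 lower, the VCaP pair 3 and 1, and the LAPC4 pair 5 lower. In the LAPC4 pair FDFT1 turned to 0.03 in deposited FPKM and FDPS to -0.03 with factors from protein-coding genes. Those factors moved the median of all tested genes in the LNCaP pair to -0.09.

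Fitted log2 fold changes near 0 turned sign when a pair was left out. Their ranges were -0.10 to 0.24 for PMVK, -0.0045 to 0.53 for IDI1, -0.0086 to 0.12 for FDPS, -0.10 to 0.17 for FDFT1, -0.28 to 0.65 for LSS, -0.24 to 0.43 for TM7SF2, -0.062 to 0.066 for HSD17B7 and -0.50 to 0.082 for EBP. They were -0.15 to 0.37 for DHCR7, -0.053 to 0.53 for ACAT2, -0.40 to 0.16 for SCAP, -0.32 to 0.65 for INSIG2, -0.065 to 0.43 for FASN, -0.0012 to 0.38 for ACACA and -0.26 to 0.51 for FADS2. SCAP was also at 0.082 without the filter, and in limma HSD17B7 was at -8.55e-06 and FADS2 at -0.065. The cause of these turns was not tested beyond the loss of a pair.

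The design limits all of this: 1 library per line, 3 pairs, and medium that differed with state. Counts per member and library ran from 20 to 20628, so counting error was widest for CYP51A1, MVD and STARD4.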
